A study of Rattus norvegicus with 20 samples.

Results

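The collagen chain genes of rat inguinal white adipose tissue (iWAT, the subcutaneous fat depot of the groin) were followed in 20 RNA sequencing libraries. Members were the rows of the gene count table whose symbol is Col, a number, the letter a and a second number. The rule uses no measured value, although it was chosen with earlier results of these data known. This gave 44 rows with 43 symbols among 32545 rows in all, since Col23a1 stood on 2 rows, of which 1 held no reads. The 44 rows comprised 11 fibrillar chains, 5 type IV (basement membrane) chains and 28 chains of other types. Reads in enough libraries for testing were found for 40 of the 44, of which 27 reached a mean of at least 1 CPM (counts per 1000000 counted reads). Col4a3 and Col21a1 were not analysed here.

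Collagens are triple helices of 3 chains that are folded in the endoplasmic reticulum, hydroxylated, secreted and cross-linked outside the cell. Fibrillar chains build the tensile fibres between cells, type I and type III being the bulk of the fibres in soft tissue and type V setting fibre diameter. Type IV chains form the sheet-like network of basement membranes, which in fat surrounds every adipocyte and blood vessel, and type VI chains form beaded filaments beside that sheet. The remaining chains decorate fibres (the FACIT group), form short-chain networks, cross the plasma membrane or carry glycosaminoglycan chains, and collagen accumulation around adipocytes is a known feature of obese fat.

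All 20 libraries came from male ZSF1 rats, a hybrid strain used as a model of obesity with diabetes, that were held on a high carbohydrate Purina chow, were enrolled at 21 to 22 weeks of age and were about 32 weeks old after the 10 week study. Lean rats were not homozygous for the Lepr fa/cp alleles, whereas the rats of the Obese, Food matched and Cmpd 1 groups carried both and so lacked a working leptin receptor. Obese rats ate chow freely. Cmpd 1 rats ate chow into which Cmpd 1, an inhibitor of protein kinase C α and β (PKCα/β), had been mixed, and Food matched rats received each week the quantity of plain chow that the Cmpd 1 group had eaten the week before. From each group 5 rats were sequenced, with 1 library each. The paper states that they were picked at random, and its 3 obese groups held more rats than were sequenced. No Lean rats received the compound, the 3 obese groups share 1 genotype, and the phenotype label of the Food matched libraries reads lean although their titles name the obese strain with calorie restriction. Lepr ranged from 2.95 to 12.0 CPM in Lean, from 1.24 to 1.89 CPM in Obese, from 1.41 to 2.32 CPM in Food matched and from 1.34 to 1.62 CPM in Cmpd 1, so that the Food matched libraries lay below every Lean library.

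Totals ran from 31716457 to 74784655 counted reads per library. Markers of other tissue stood out in several libraries. The 6 skeletal muscle markers summed to 2717 CPM in Lean 1 and 4728 CPM in Lean 2, to 72.0 CPM in Food matched 5 and to at most 12.0 CPM elsewhere. Mesothelial markers summed to 270.2, 109 and 101 CPM in Lean 1, Lean 2 and Obese 2 and to between 3.12 and 21.8 CPM elsewhere. Epithelial or gland genes summed to 131 CPM in Lean 2 and 47.5 CPM in Obese 4, and liver and intestine genes to 242 CPM in Lean 5 (91.6 to 151 CPM in the other Lean libraries, 6.58 to 24.2 CPM elsewhere). Lymph node genes summed to 80.5 to 92.3 CPM in Lean and 6.36 to 36.3 CPM elsewhere. The defining adipocyte genes were abundant throughout, with 15879 to 17890 CPM for the sum of 6 markers in Lean and 10624 to 15238 CPM elsewhere. Endothelial markers summed to 729 to 814 CPM in Lean, 514 to 787 in Obese, 467 to 691 in Food matched and 563 to 731 in Cmpd 1. Mural markers summed to 836 to 1074, 693 to 937, 647 to 854 and 691 to 922 CPM in the same order. The part of any of these in the collagen levels was not tested. Results that rest on the libraries named here are given with and without them. The liver and intestine and the lymph node sums were higher in every Lean library than in all others. Their part therefore cannot be told apart from the Lean group. In bulk tissue, fewer cells of a type and less RNA per cell cannot be told apart, which holds for every level given here.

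Collagen chains took 1.69% ± 0.223 of all counted reads in Lean, 2.56% ± 0.380 in Obese, 2.34% ± 0.295 in Food matched and 2.13% ± 0.187 in Cmpd 1 (SD, n = 5 each). Every Lean library (1.36 to 1.88%) lay below every library of the 3 obese groups (lowest 1.89%). The make-up of that share also differed. Fibrillar chains held 49.8 to 52.1% of collagen reads in Lean, 53.1 to 60.3% in Obese, 51.7 to 57.5% in Food matched and 50.5 to 54.4% in Cmpd 1. Type IV chains held 30.1 to 32.5% in Lean, 19.9 to 26.4% in Obese, 22.3 to 26.4% in Food matched and 27.1 to 30.0% in Cmpd 1, so the Cmpd 1 libraries lay between the Lean libraries and those of both other obese groups without overlap. Type VI chains held 11.4 to 12.2% in Lean, 14.3 to 15.1% in Obese, 15.0 to 17.2% in Food matched and 12.6 to 13.8% in Cmpd 1, in the opposite order. These shares are read counts and move with chain length as well as transcript number.

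**Figure D1:**
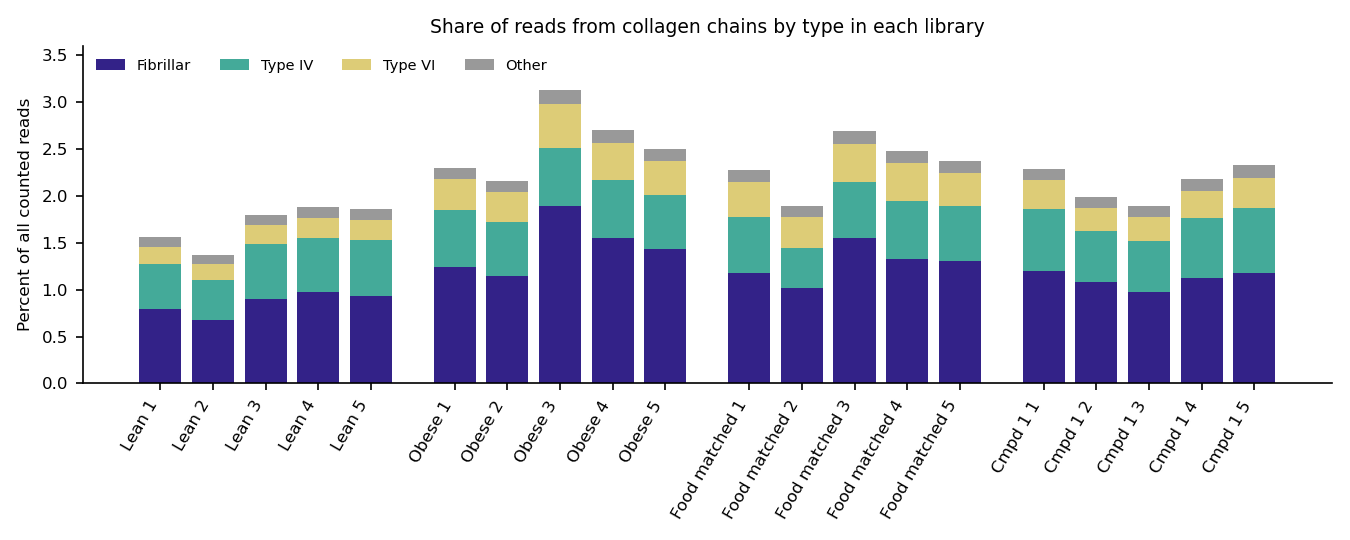
Percent of all counted reads that fell on collagen chains in each of the 20 libraries (vertical axis), stacked by fibrillar, type IV, type VI and other chains. The Lean bars end at 1.36 to 1.88%, the highest bar is Obese 3 at 3.13%, and the type IV segment differs little in height between groups (means of 0.531 to 0.616%) while the fibrillar and type VI segments are taller in Obese and Food matched.

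Levels per transcript length (RPKM, the CPM divided by the gene's length in kilobases from the table) put the fibrillar and basement membrane chains first. Col3a1, the single chain of type III collagen, was first in every group, at 938 ± 159 RPKM in Lean and 1843 ± 409 in Obese (mean ± SD, n = 5). Col4a1 was second in every group with a mean of 528 RPKM over all libraries, followed by Col4a2 (455), Col1a1 (413), Col6a2 (301), Col6a1 (281), Col5a3 (240.04), Col5a2 (151), Col18a1 (134), Col6a3 (95.1) and Col5a1 (77.6). Neighbours in this order did not all separate: Col4a2, Col1a1 and Col4a1 overlapped across libraries (301 to 583, 177 to 761 and 377 to 588 RPKM), as did Col6a2 and Col6a1 (172 to 423 and 145 to 421 RPKM). Col1a1 took place 4 in Lean and Cmpd 1 and place 3 in Obese and Food matched. Col17a1 moved furthest among the chains above 10 RPKM, from place 23 in Lean to 14 in Obese and Food matched and 17 in Cmpd 1.

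Col1a2, the second chain of type I collagen, had only 31 reads over all 20 libraries, against 2862215 for Col1a1, and Col15a1, a basement membrane associated multiplexin, had 19. Type I collagen is made of both chains, so the Col1a2 row cannot be read as the transcript's level; only uniquely mapped reads were counted, and the reason for these low rows was not tested. Neither row is described below as a level, but both stay in the counts and medians over the 40 chains and their types, the Col15a1 row as a DEG higher in Obese, Food matched and Cmpd 1 than in Lean.

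**Figure D2:**
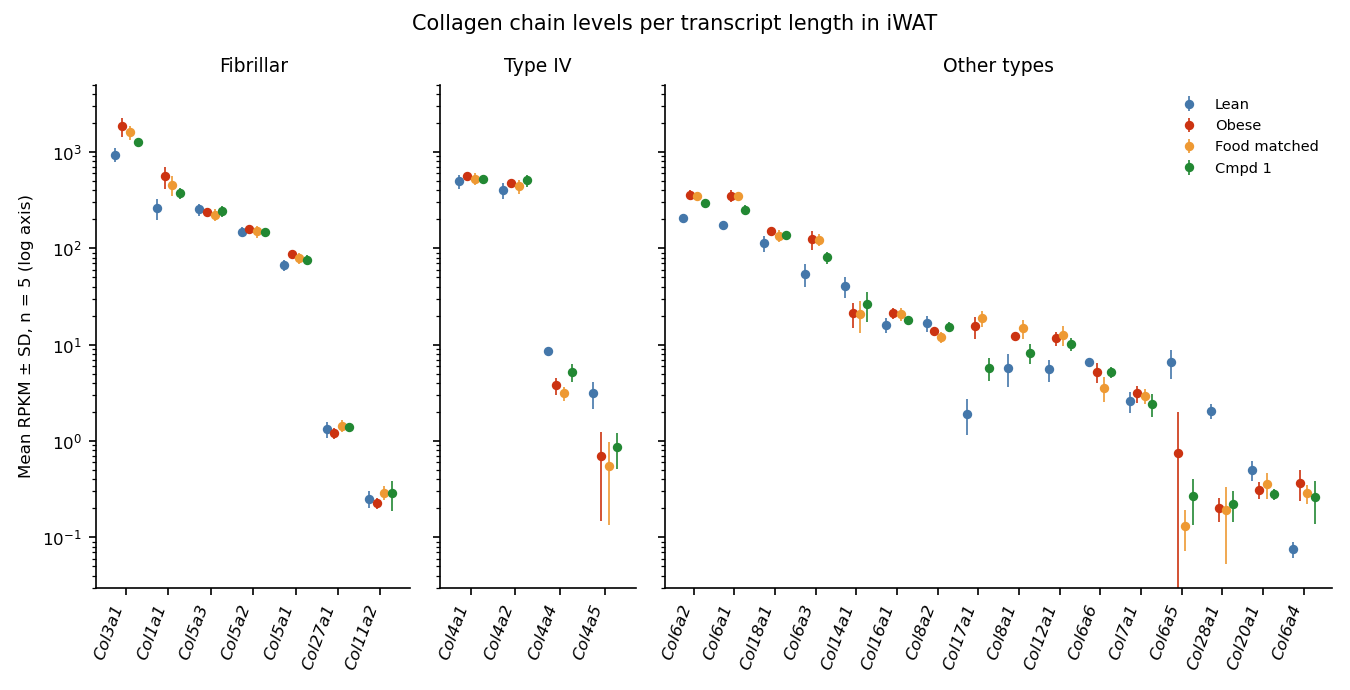
Mean RPKM ± SD (n = 5, log axis) of the 27 chains with a mean of at least 1 CPM, ordered by level within fibrillar, type IV and other types, with 1 point per group. Col3a1 lies at the top in all groups, Lean points stand apart for Col17a1, Col28a1 and Col6a5, and the lower bar of Col6a5 in Obese reaches below the axis.

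The comparison of Obese with Lean asked which chains differ with obesity. A gene was called differentially expressed (DEG) at a fold over 1.5 and an adjusted p under 0.05, from edgeR's quasi-likelihood test over all 17653 genes tested with Benjamini-Hochberg adjustment, which holds for every adjusted p below, and every value printed with an SE is a log2 fold change. Of the 40 chains tested, 10 were DEGs higher in Obese and 13 were DEGs lower, where 11.3% and 11% of all genes tested were called in those directions. The median log2 fold change of the 40 chains was 0.00 against -0.01 for all genes, and by type it was -0.08 for the fibrillar, -1.20 for the type IV and 0.25 for the other chains. Over the 27 chains with a mean of at least 1 CPM it was 0.24, and by type 0.08, -0.51 and 0.39. Chains with a mean of at least 1 CPM were called higher in 9 of 27 cases (11.5% of all genes at that level) and lower in 6 (9.53%), whereas among the 13 chains below it 1 was higher, the Col15a1 row with 19 reads, and 7 were lower. That level was reached by 12917 of the 17653 genes tested. Of all genes tested, 1991 were DEGs higher and 1938 lower, of which 1487 and 1231 had a mean of at least 1 CPM. The 10 higher chains included the most abundant fibrillar chains of types III and I (Col3a1 and Col1a1), all 3 chains of the main type VI trimer (Col6a1, Col6a2 and Col6a3) with Col6a4, and Col8a1, Col12a1 and Col17a1. The lower chains included Col4a4, Col4a5, Col6a5, Col14a1, Col20a1 and Col28a1. Without Lean 1 and Lean 2, 9 chains were DEGs higher and 10 were DEGs lower. Col11a1, Col14a1 and Col23a1 then lost the call on the lower side, at -0.37 (adjusted p = 0.47), -0.70 (adjusted p = 0.057) and -1.71 (adjusted p = 0.050), as did the Col15a1 row on the higher side, and the remaining 19 chains kept it. Without Lean 1, 2 and 5, Obese 4 and Food matched 5, which left 2 Lean libraries and kept Obese 2, the counts were 10 and 8.

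The comparison of Cmpd 1 with Food matched asked which chains differ with the compound at like food intake. The sampled tissue itself differed too. The paper reports that the treated rats lost weight and had a lighter iWAT depot than the food matched rats. It also reports smaller adipocytes and less staining for leukocytes in the treated rats. The part of these differences in the collagen levels was not tested. Between Cmpd 1 and Food matched, 1 chain was a DEG higher (1.54% of all genes tested) and 3 were DEGs lower (4.65%): Col4a4 rose, and Col17a1, Col8a1 and Col6a3 fell. All 4 moved opposite to their direction between Obese and Lean, and these 2 comparisons share no libraries. They were 3 of the 10 chains higher in Obese (30%, against 32.7% of all genes higher) and 1 of the 13 lower (7.69%, against 9.75% of all genes lower), which is near the background. Among the 10 chains that were DEGs higher in Obese, 9 had a log2 fold change below 0 in Cmpd 1 against Food matched, where 92.3% of all 1991 such genes did. Among the 13 that were DEGs lower, 8 had one above 0, or 61.5%, against 72.4% of all 1938. No test of these shares against all genes was run.

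No chain was called between Food matched and Obese, where 0% of all genes tested were called in either direction by edgeR. An unadjusted p under 0.05 was reached by 1 chain upwards and 3 downwards, or 2.5% and 7.5% of the 40 against 5.22% and 5.47% of all genes, limma-voom called none and DESeq2 called 1 lower. Between Cmpd 1 and Obese no chain was a DEG higher by edgeR (0.731% of all genes), nor by limma-voom or DESeq2, with 2 of 40 (5%) higher at an unadjusted p under 0.05 against 14.2% of all genes. DEGs lower numbered 3 (2.8% of all genes): Col17a1, Col6a3 and Col22a1. At an unadjusted p under 0.05, 10 of 40 chains (25%) were lower, against 13.9% of all genes. Against Lean, Food matched had 10 chains higher (12.5% of all genes) and 12 lower (12.8%), and Cmpd 1 had 5 higher (7.47%) and 11 lower (9.11%). The 5 higher in Cmpd 1 than in Lean were Col6a3, Col6a4, Col12a1, Col17a1 and the Col15a1 row, so that Col3a1, Col1a1, Col6a1, Col6a2 and Col8a1 were not DEGs there. Of these, Col3a1, Col1a1, Col6a1 and Col6a2 were still higher than in Lean at an adjusted p under 0.05, by less than 1.5-fold. Both of these share the Lean libraries with Obese versus Lean and are no separate evidence of its direction.

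**Figure D3:**
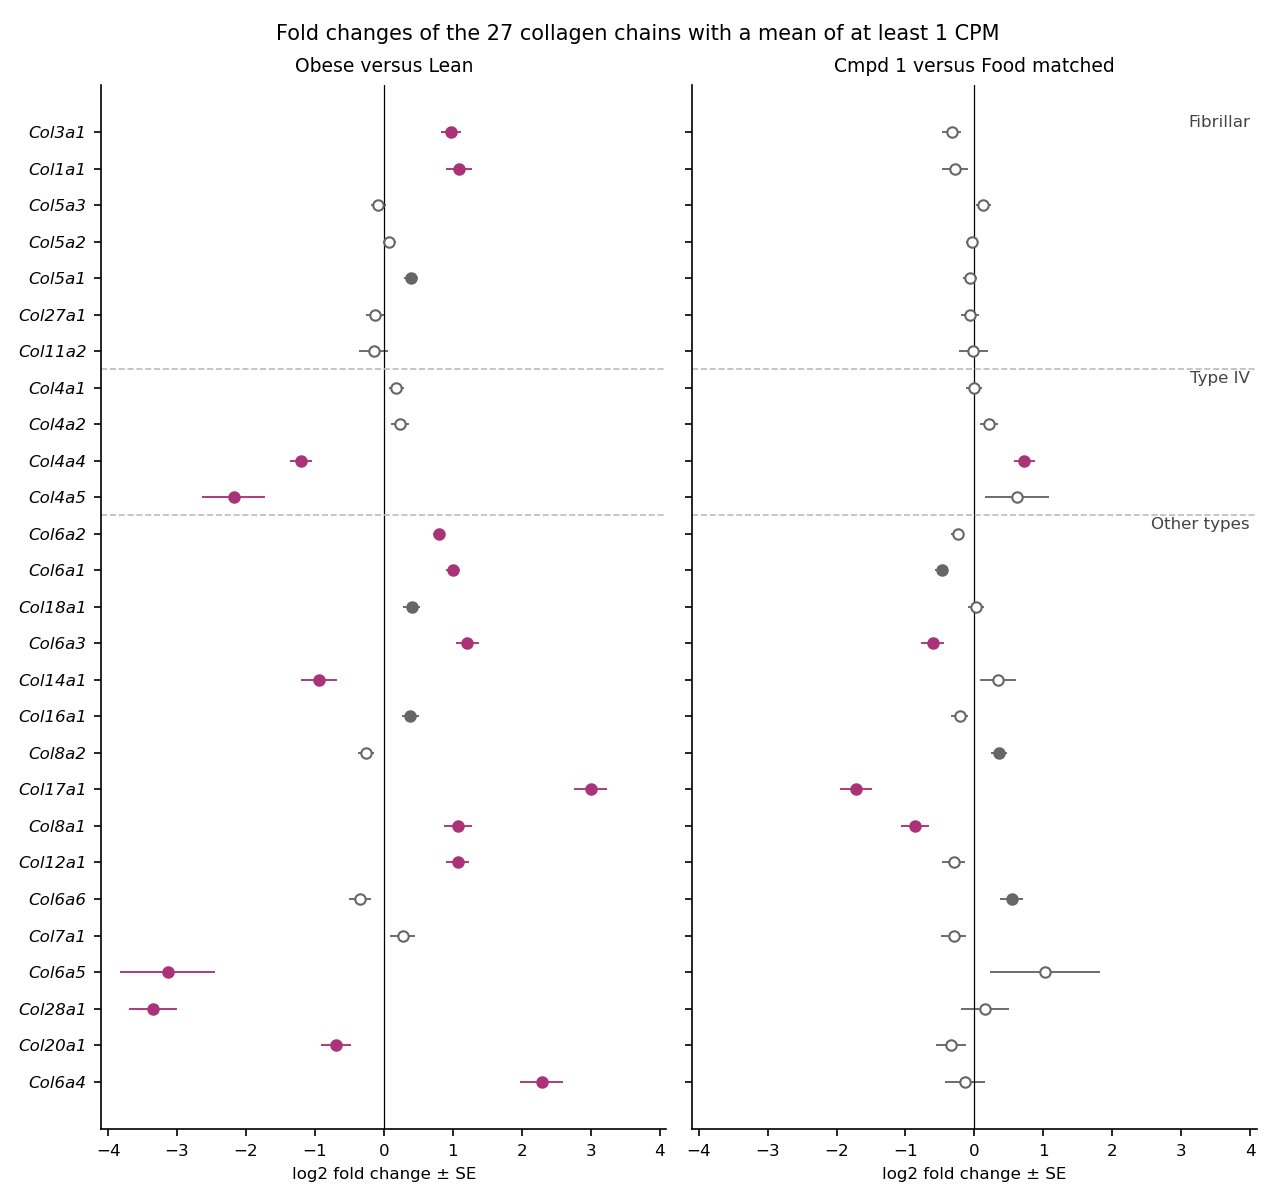
Log2 fold change ± SE from edgeR (horizontal axis) of the 27 chains with a mean of at least 1 CPM, for Obese versus Lean on the left and Cmpd 1 versus Food matched on the right, grouped by type with the highest level first. Purple points are DEGs, grey filled points passed an adjusted p of 0.05 with a smaller fold and open points did not pass. The 4 purple points on the right (Col4a4, Col6a3, Col17a1 and Col8a1) lie on the opposite side of 0 from their points on the left.

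Of the 11 fibrillar chains, 2 were DEGs higher in Obese than in Lean, 3 were DEGs lower, and none was a DEG by edgeR between Cmpd 1 and Food matched, where an unadjusted p under 0.05 was reached by 1 on each side and by 17.2% upwards and 16.6% downwards of all genes. Their median log2 fold change in that comparison was -0.04, against 0.01 for all genes. Col3a1 (chromosome 9, 52023295 to 52059217, plus strand in rn6) stood at 4088, 3358, 4778, 5311 and 4806 CPM in Lean 1 to 5 and at 7369, 6677, 11649.9, 9526 and 8679.9 CPM in Obese 1 to 5. Its Food matched values were 6806, 6002, 9247, 7941 and 7889 CPM and its Cmpd 1 values 6471, 6018, 5366, 5959 and 6344 CPM. Every Lean library lay below every other library, and the Cmpd 1 libraries lay below all 5 Obese libraries but overlapped Food matched. The log2 fold change was 0.97 ± 0.14 (SE, adjusted p = 9.5e-06) in Obese against Lean and -0.33 ± 0.14 (SE, adjusted p = 0.10) in Cmpd 1 against Food matched. In Cmpd 1 against Obese it was -0.54 ± 0.14 (SE, adjusted p = 0.016), a fall of less than 1.5-fold, and without Obese 1 or Obese 2 the fall passed that fold, at -0.60 or -0.63.

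Col1a1 (chromosome 10, 82745801 to 82762789, plus strand), the major chain of type I collagen, had 1291, 1033, 1578, 1996 and 1720.0 CPM in Lean and 2657, 2317, 4435, 3622 and 3189.7 CPM in Obese. In Food matched it had 2383, 1817, 3473, 2860.3 and 2773 CPM and in Cmpd 1 2564, 2070.3, 1794, 2233 and 2312 CPM. Lean and Obese did not overlap, Obese 3 being the highest library of all for both Col1a1 and Col3a1. The log2 fold change was 1.09 ± 0.19 (SE, adjusted p = 6.8e-05) in Obese against Lean, -0.28 ± 0.19 (SE, adjusted p = 0.32) in Cmpd 1 against Food matched and -0.56 ± 0.19 (SE, adjusted p = 0.048) in Cmpd 1 against Obese. The last passed 1.5-fold without Obese 1, Obese 2 or Cmpd 1 1, at -0.63, -0.67 and -0.63, and Col1a1 in Cmpd 1 against Lean, 0.53 ± 0.19, did so without Lean 4 (0.64) or Cmpd 1 3 (0.59). Without Lean 1 and 2, Col3a1 and Col1a1 in Obese against Lean were 0.82 (adjusted p = 1.7e-04) and 0.88 (adjusted p = 0.0012).

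The type V chains, which join type I fibres and limit their width, moved less. Col5a1 averaged 437 ± 56.97 CPM in Lean and 573 ± 57.5 CPM in Obese, a log2 fold change of 0.39 ± 0.10 (SE, adjusted p = 0.0032) that is under 1.5-fold. Col5a2 and Col5a3 were called in none of the 6 comparisons, with log2 fold changes of 0.08 ± 0.09 and -0.08 ± 0.11 in Obese against Lean. Col27a1 and Col11a2, 2 minor fibrillar chains, were not called in any comparison either. The 3 lower fibrillar DEGs were low: Col11a1 averaged 1.69 CPM in Lean and 0.812 in Obese, Col24a1 went from 0.422 to 0.0661 and Col2a1 from 0.187 to 0.0146. Col11a1 gave -1.06 ± 0.40 (SE, adjusted p = 0.034), with Lean 3 below the Obese libraries, and lost its call in 12 of 30 alternatives. Col24a1 gave -2.62 ± 0.54 (SE, adjusted p = 4.6e-04) with no overlap between Lean and Obese. Col2a1, the cartilage collagen, gave -3.41 ± 1.07 (SE, adjusted p = 0.012) and had 80 reads in all, 1 Lean library (Lean 3) without any, and reads in only Obese 1 among the Obese libraries. It lost its call without Lean 4 (-2.52, adjusted p = 0.060) and was -6.49 without Obese 1.

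Of the 5 type IV chains, the 2 abundant ones were not called between Obese and Lean, the 2 of middle level were DEGs lower, and the rarest, Col4a6, did not pass. Of all genes tested, 11% were DEGs lower in Obese than in Lean. The median log2 fold change of the 5 chains was -1.20 in that comparison and 0.58 in Cmpd 1 against Food matched. In the latter Col4a4 alone was a DEG, higher in Cmpd 1 (1.54% of all genes). Over the 4 type IV chains with a mean of at least 1 CPM, which leaves out Col4a6, the medians were -0.51 and 0.41. Col4a1 and Col4a2 are the chains of the common basement membrane trimer of 2 Col4a1 and 1 Col4a2. Col4a1 (chromosome 16, 83522162 to 83632153, plus strand) had 2937, 2481, 3708, 3544 and 3644 CPM in Lean, 3801, 3438, 3862, 3803 and 3591 in Obese, 3746, 2545, 3638, 3813 and 3630.5 in Food matched and 3771, 3118, 3034, 3487 and 3866 in Cmpd 1. Col4a2 (chromosome 16, 83387364 to 83438561, minus strand) had 1677, 1487, 2217, 2180.4 and 2329 CPM in Lean, 2390.0, 2215, 2342, 2451 and 2245 in Obese, 2259, 1559, 2420.2, 2315 and 2282 in Food matched and 2755, 2101, 2169, 2629.6 and 2879 in Cmpd 1. The groups overlapped for both, Lean 1, Lean 2 and Food matched 2 being the lowest libraries. The log2 fold change in Obese against Lean was 0.18 ± 0.11 (SE, adjusted p = 0.20) for Col4a1 and 0.24 ± 0.13 (SE, adjusted p = 0.13) for Col4a2, and in Cmpd 1 against Food matched -0.01 ± 0.11 (SE, adjusted p = 0.97) and 0.21 ± 0.13 (SE, adjusted p = 0.26). Without Lean 1 and 2 those of Obese against Lean were 0.03 (adjusted p = 0.87) and 0.05 (adjusted p = 0.75). In Cmpd 1 against Lean, Col4a2 was higher by 0.34 ± 0.13 (SE, adjusted p = 0.037), under 1.5-fold.

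Col4a1 and Col4a2 are transcribed away from each other, and in the RefSeq annotation of GRCr8 only 76 bases lie between their start sites. The count table's own rn6 models place the starts 83600 bases apart. The stretch is printed because both chains are read from it; it lies at chr16:84885521-84885596 on the plus strand, the direction of Col4a1, and capitals mark the single match to the GC box GGGCGG, here as its reverse complement CCGCCC.
Col4a1 and Col4a2, between the starts: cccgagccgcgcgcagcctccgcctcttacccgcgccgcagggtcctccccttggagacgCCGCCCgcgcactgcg
The motifs searched on both strands were the CCAAT box by those letters, the GC box as GGGCGG, the TATA box as TATAAA and the AP-1 site as TGANTCA. In the 250 bases before the start they were found in 34.3%, 32.4%, 13.1% and 6.36% of 27457 rat promoters, and in 11, 18, 4 and 1 of the 34 collagen promoters with an entry. The stretch between the 2 starts is shorter than that window.

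Col4a4, a chain of the type IV trimer known from kidney glomeruli and other specialised basement membranes, was a DEG lower in Obese and a DEG higher in Cmpd 1 than in Food matched. Col4a4 (chromosome 9, 88232455 to 88357182, minus strand) had 93.9, 99.001, 96.6, 80.8 and 104 CPM in Lean and 40.2, 50.7, 39.7, 28.8 and 46.9 CPM in Obese. Food matched had 26.98, 38.9, 30.6, 33.4 and 40.2 CPM and Cmpd 1 had 36.1, 62.2, 61.7, 66.5 and 55.4 CPM. All Lean libraries lay above all others, and 4 of 5 Cmpd 1 libraries lay above every Obese and Food matched library, Cmpd 1 1 being the exception. The log2 fold change was -1.20 ± 0.15 (SE, adjusted p = 1.7e-06) in Obese against Lean, 0.73 ± 0.15 (SE, adjusted p = 0.0020) in Cmpd 1 against Food matched and -0.75 ± 0.15 (SE, adjusted p = 5.2e-04) in Cmpd 1 against Lean. In Cmpd 1 against Obese it was 0.45 ± 0.15 (SE, adjusted p = 0.054), short of the threshold. Over 30 alternative settings the Obese against Lean value stayed between -1.28 and -0.99 and that of Cmpd 1 against Food matched between 0.65 and 0.85, each with its call. The 250 bases before its RefSeq start, at chr9:91323578-91323827 of GRCr8 on the minus strand, are shown as those of the chain that rose with Cmpd 1, and hold none of the letters searched.
Col4a4: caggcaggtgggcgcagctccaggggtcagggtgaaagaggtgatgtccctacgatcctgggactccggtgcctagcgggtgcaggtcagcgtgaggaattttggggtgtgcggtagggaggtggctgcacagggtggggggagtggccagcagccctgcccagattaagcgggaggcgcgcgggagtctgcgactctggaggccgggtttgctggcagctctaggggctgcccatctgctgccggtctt

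Col4a5 and Col4a6 are paired genes of the X chromosome. Col4a5 (chromosome X, 112769645 to 112983685, plus strand) had 27.4, 26.4, 14.7, 14.6 and 18.4 CPM in Lean and 2.53, 10.6, 4.02, 1.93 and 3.29 CPM in Obese. Its Food matched values were 1.75, 8.32, 2.69, 2.11 and 2.98 CPM and its Cmpd 1 values 1.82, 6.99, 6.12, 7.35 and 5.55 CPM. Lean lay above every other library, and the highest libraries of Obese, Food matched and Cmpd 1 were Obese 2, Food matched 2 and Cmpd 1 4. On the log2 scale the difference was -2.18 ± 0.46 (SE, adjusted p = 5.8e-04) in Obese against Lean and 0.62 ± 0.46 (SE, adjusted p = 0.38) in Cmpd 1 against Food matched. Without Obese 2 the former was -2.78 and without Lean 1 and 2 it was -1.83 (adjusted p = 0.0058). Without Lean 1, 2 and 5, Obese 4 and Food matched 5 it lost the call, at -1.51 (adjusted p = 0.056). That last fit kept Obese 2 and held only 2 Lean libraries.

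Col4a6 (chromosome X, 112405647 to 112473822, minus strand) held 285 reads in all, at 1.19, 1.30, 0.240, 0.0839 and 0.321 CPM in Lean, 0, 0.462, 0.140, 0.0181 and 0.0882 in Obese, 0, 0.0776, 0.186, 0.0273 and 0.0556 in Food matched and 0.0756, 0.318, 0.0208, 0.0306 and 0.0527 in Cmpd 1. Obese 1 and Food matched 1 had none. Lean 1 and Lean 2, the libraries with skeletal muscle and the most mesothelial transcripts, were the 2 highest, and Obese 2, the other library with mesothelial transcripts, was the highest of Obese. The part of those transcripts in the result was not tested. The log2 fold change in Obese against Lean was -2.15 ± 0.89 (SE, adjusted p = 0.053) and, without Lean 1 and 2, -0.62 (adjusted p = 0.65). The calls of Col4a6 in Food matched and in Cmpd 1 against Lean, -3.14 ± 0.96 and -2.56 ± 0.93, were likewise lost without those 2 libraries, and the latter also without Lean 1, Lean 2 or Cmpd 1 1, 3, 4 or 5 alone (adjusted p from 0.069 to 0.096). They moved to -3.85 without Food matched 3 and to -3.67 without Cmpd 1 2.

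Of the 6 type VI chains, 4 were DEGs higher in Obese than in Lean, Col6a5 was a DEG lower and Col6a6 did not pass. Of all genes tested, 11.3% were called higher and 11% lower. The median log2 fold change of the 6 chains was 0.90 there and -0.19 in Cmpd 1 against Food matched. In the latter Col6a3 was the DEG, lower in Cmpd 1 (4.65% of all genes). Col6a1, Col6a2 and Col6a3 form the common trimer, whose Col6a3 chain releases the fragment endotrophin in fat. Col6a1 (chromosome 20, 12658065 to 12675561, plus strand) had 522, 448, 569, 584 and 579.8 CPM in Lean and 946, 977, 1298, 1162 and 1040.2 CPM in Obese. Its Food matched values were 1057, 928, 1167, 1163 and 1045 CPM and its Cmpd 1 values 842, 682, 660.2, 794 and 875 CPM. The Cmpd 1 libraries lay above all Lean libraries and below all Obese and Food matched libraries. The fitted log2 difference was 1.00 ± 0.10 (SE, adjusted p = 6.8e-08) in Obese against Lean, -0.48 ± 0.10 (SE, adjusted p = 0.0019) in Cmpd 1 against Food matched and -0.49 ± 0.10 (SE, adjusted p = 0.0037) in Cmpd 1 against Obese. The fall with Cmpd 1 was under 1.5-fold in each.

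Col6a2 (chromosome 20, 12773427 to 12801180, plus strand) had 752, 636, 787, 820.3 and 809.6 CPM in Lean and 1166, 1225, 1563, 1384 and 1277 CPM in Obese. Food matched had 1232, 1134, 1385, 1376 and 1291 CPM and Cmpd 1 had 1134, 1016, 930.3, 1129 and 1207 CPM, so Cmpd 1 again stood above Lean but overlapped Obese and Food matched. The chain's log2 fold change was 0.80 ± 0.09 (SE, adjusted p = 2.9e-07) in Obese against Lean, -0.24 ± 0.09 (SE, adjusted p = 0.051) in Cmpd 1 against Food matched and -0.29 ± 0.09 (SE, adjusted p = 0.035) in Cmpd 1 against Obese.

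Col6a3 (chromosome 9, 97926787 to 98004546, minus strand, annotated as a processed transcript) had 445, 402, 659, 771 and 663 CPM in Lean and 1199, 1015, 1824, 1477 and 1301 CPM in Obese. Food matched had 1431, 1060.5, 1509.9, 1492 and 1235 CPM and Cmpd 1 had 1018, 718, 825, 844 and 1014 CPM. All Cmpd 1 libraries lay below all Food matched libraries, and only Obese 2 among the Obese libraries fell within the range of Cmpd 1. On the log2 scale the difference was 1.21 ± 0.17 (SE, adjusted p = 7.1e-06) in Obese against Lean, -0.61 ± 0.17 (SE, adjusted p = 0.014) in Cmpd 1 against Food matched and -0.63 ± 0.17 (SE, adjusted p = 0.020) in Cmpd 1 against Obese. The call against Food matched sits near the fold threshold and was lost in 6 of 30 alternatives. It was lost without Food matched 1, 3 or 4 or Cmpd 1 2 or 3 (-0.58, -0.56, -0.57, -0.54 and -0.58, adjusted p up to 0.039) and with scaling by library size alone (-0.57). The call against Obese was lost without Obese 3, Obese 4, Cmpd 1 2 or Cmpd 1 4 (-0.50, -0.59, -0.56 and -0.61, adjusted p from 0.050 to 0.064) and with library size alone (-0.57). In Cmpd 1 against Lean, 0.59 ± 0.17, the call was lost in 10 of 30 alternatives, among them those without Lean 1 (0.50), Lean 2 (0.48), Cmpd 1 1 (0.53) or Cmpd 1 5 (0.53), and without Lean 1 and 2 together the value was 0.34 (adjusted p = 0.11).

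Col6a4, Col6a5 and Col6a6 lie in a row on chromosome 8 and can stand in for Col6a3 in the trimer. Col6a4 (chromosome 8, 114670631 to 114766803, minus strand) had 0.411, 0.580, 0.351, 0.520 and 0.520 CPM in Lean and 1.97, 1.73, 3.79, 2.13 and 2.12 CPM in Obese. Food matched had 1.47, 1.35, 1.95, 2.30 and 2.09 CPM and Cmpd 1 had 2.27, 2.31, 0.666, 0.980 and 2.02 CPM. Every Lean library lay below every other library, and the 3 obese groups overlapped. The fitted log2 difference was 2.29 ± 0.31 (SE, adjusted p = 4.1e-06) in Obese against Lean and -0.14 ± 0.29 (SE, adjusted p = 0.80) in Cmpd 1 against Food matched.

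Col6a5 (chromosome 8, 114529016 to 114617466, minus strand) ran the other way, with 66.7, 71.3, 51.1, 29.4 and 41.5 CPM in Lean and 2.57, 23.8, 1.31, 0.758 and 1.19 CPM in Obese, a log2 fold change of -3.14 ± 0.68 (SE, adjusted p = 7.2e-04). It ranged from 0.534 to 1.63 CPM in Food matched and from 0.877 to 3.74 CPM in Cmpd 1, and its log2 fold change between these was 1.03 ± 0.80 (SE, adjusted p = 0.40). Obese 2, where mesothelial markers summed to 101 CPM against at most 9.96 CPM in the other Obese libraries, was the only library outside Lean above 4 CPM, and the part of those transcripts was not tested. Without Obese 2 the log2 fold change in Obese against Lean was -5.13. Col6a6 went from 45.02 ± 4.87 CPM in Lean to 35.4 ± 8.30 in Obese, 24.1 ± 7.05 in Food matched and 35.2 ± 4.75 in Cmpd 1. It was a DEG lower in Food matched than in Lean, -0.90 ± 0.17 (SE, adjusted p = 1.3e-04), and was higher in Cmpd 1 than in Food matched by 0.54 ± 0.17 (SE, adjusted p = 0.024), under 1.5-fold. That rise passed 1.5-fold without Food matched 5 (0.72) or Cmpd 1 2 (0.61).

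Col17a1, the transmembrane collagen of epithelial hemidesmosomes, had the smallest adjusted p of all chains in Obese against Lean, in Cmpd 1 against Food matched and in Cmpd 1 against Obese. Col17a1 (chromosome 1, 267417459 to 267463705, minus strand) had 6.46, 9.09, 11.7, 17.6 and 8.67 CPM in Lean and 60.4, 64.8, 96.6, 111 and 95.8 CPM in Obese. Food matched had 112, 133, 98.6, 86.3 and 89.8 CPM and Cmpd 1 had 45.2, 32.3, 26.4, 23.1 and 31.01 CPM. The Cmpd 1 libraries lay above every Lean library and below every Obese and Food matched library. The chain's log2 fold change was 3.001 ± 0.24 (SE, adjusted p = 4.9e-09) in Obese against Lean, -1.71 ± 0.23 (SE, adjusted p = 8.3e-05) in Cmpd 1 against Food matched and -1.44 ± 0.23 (SE, adjusted p = 9.0e-04) in Cmpd 1 against Obese. Against Lean it was 1.57 ± 0.23 (SE, adjusted p = 2.5e-05) in Cmpd 1. Every one of 30 alternatives kept these calls, and without Lean 1 and 2 the Obese against Lean value was 2.76 (adjusted p = 1.4e-07).

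Of the 6 epithelium and gland markers, Krt14 was 0 to 0.291 CPM in Obese and 0 to 0.0847 CPM in Food matched, and Krt5 was 0 to 0.0361 CPM in Obese and had no reads in Food matched. Krt5 was highest in Lean 2, at 12.5 CPM, where Col17a1 was 9.09 CPM. Epcam, Krt8 and Krt18 also had their highest libraries in Lean. The gland gene Scgb2a1 was the member of that list called higher in Obese than in Lean, at 37.9 CPM in Obese 4 and at most 1.23 CPM in Lean. The list summed to 12.4 to 131 CPM in Lean, 8.23 to 47.5 in Obese, 5.76 to 8.10 in Food matched and 9.30 to 10.6 in Cmpd 1. Of the 6 macrophage markers, 3 were DEGs higher in Obese than in Lean and 1, Cd163, was a DEG lower. Of all genes tested, 11.3% and 11% were called in those directions. In Cmpd 1, 3 of the 6 markers were DEGs lower than in Food matched, as were 4.65% of all genes. Cd163 was 168 to 208 CPM in Lean, 55.5 to 95.6 in Obese, 96.8 to 168 in Food matched and 37.9 to 123 in Cmpd 1. Cd68 was 58.7 to 94.9 CPM in Lean, 259 to 363 in Obese, 285 to 439 in Food matched and 151 to 254 in Cmpd 1, and Trem2 was 22.6 to 37.99, 114 to 186, 131 to 201 and 80.4 to 132 CPM. Over all 6 macrophage markers the sum was 893.5 to 1021 CPM in Lean, 1350 to 1742 in Obese, 1481 to 2285 in Food matched and 1101 to 1343 in Cmpd 1, and none was at 0. The part of epithelial, gland or macrophage transcripts in the Col17a1 result was not tested. The 250 bases before the RefSeq start of Col17a1 lie at chr1:256518858-256519107 of GRCr8 on the minus strand. They are printed as those of the chain with the largest change in Cmpd 1 against Food matched. Capitals mark a match to the CCAAT box letters (as the reverse complement ATTGG) and 2 matches to the TATA box letters. These are letter matches whose function was not tested.
Col17a1: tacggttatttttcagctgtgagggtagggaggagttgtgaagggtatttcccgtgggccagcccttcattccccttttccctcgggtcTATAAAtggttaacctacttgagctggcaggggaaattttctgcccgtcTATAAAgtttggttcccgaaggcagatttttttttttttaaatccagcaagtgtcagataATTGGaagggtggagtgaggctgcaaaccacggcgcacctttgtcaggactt

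**Figure D4:**
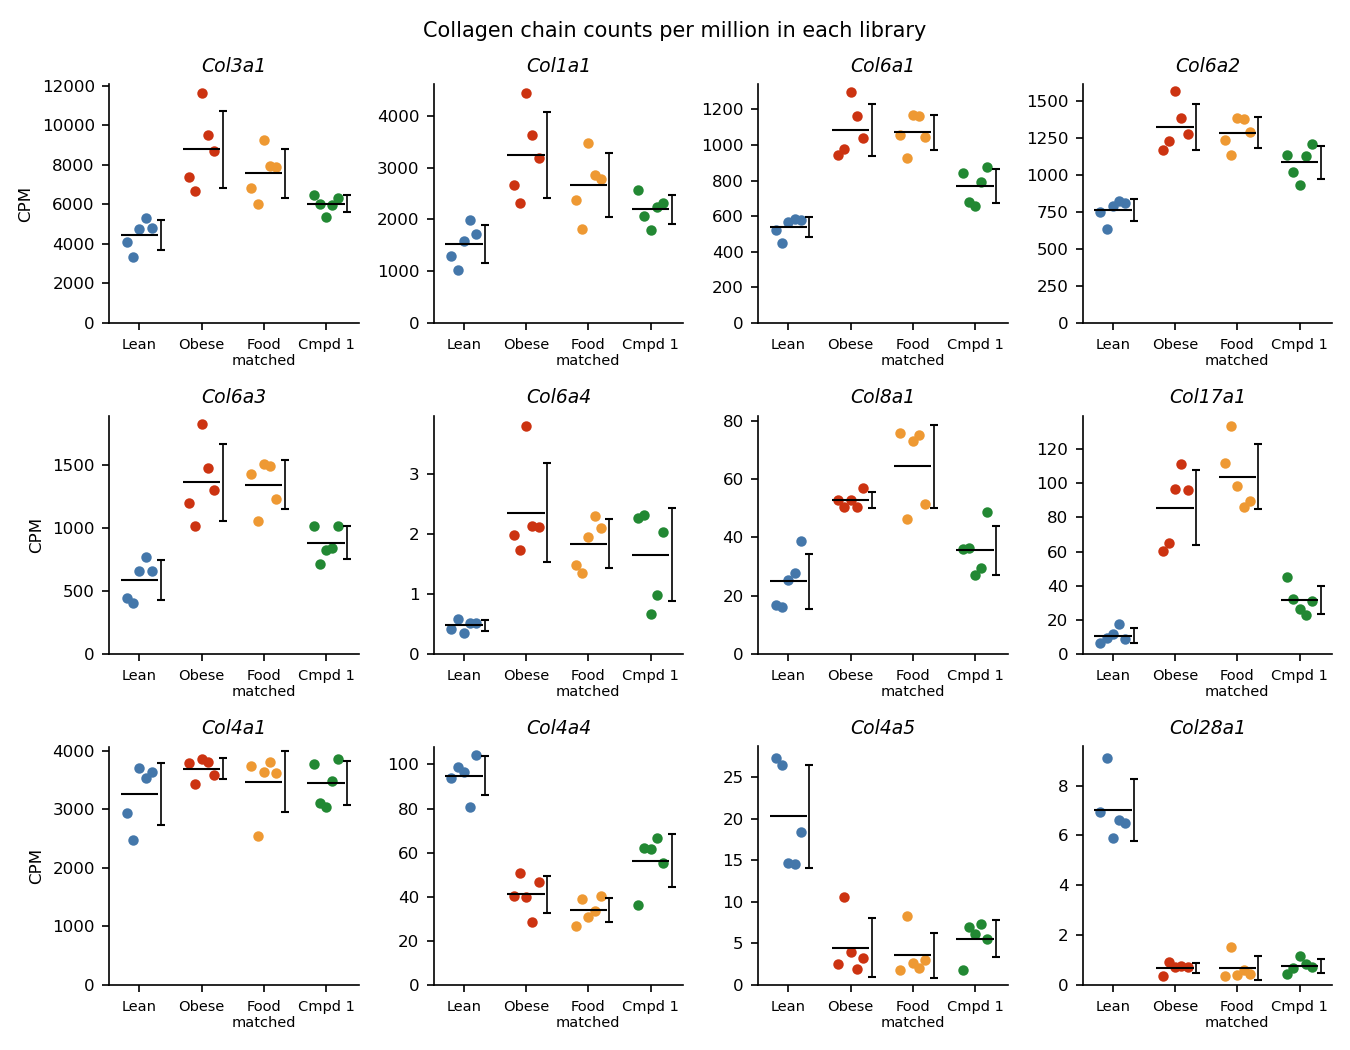
CPM of 12 chains in each of the 20 libraries (vertical axes from 0), with points for libraries in order of replicate, the group mean as a line and the SD beside it (n = 5). Cmpd 1 lies between Lean and the other obese groups for Col6a1 and Col17a1 without overlap, while Col28a1 is high in Lean alone.

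Col8a1, a short-chain collagen of vessel walls and of basement membranes under endothelium, had 16.7, 16.02, 25.3, 27.9 and 38.8 CPM in Lean and 52.9, 50.5, 52.8, 50.5 and 57.02 CPM in Obese. Food matched had 75.8, 46.3, 73.1, 75.1 and 51.5 CPM and Cmpd 1 had 36.05, 36.3, 26.9, 29.5 and 48.7 CPM. Lean and Obese did not overlap, and of the Cmpd 1 libraries only Cmpd 1 5 reached the range of Food matched. On the log2 scale the difference was 1.08 ± 0.21 (SE, adjusted p = 1.9e-04) in Obese against Lean and -0.86 ± 0.20 (SE, adjusted p = 0.0047) in Cmpd 1 against Food matched (chromosome 11, 44877859 to 45007891, plus strand). Its partner Col8a2 ran the other way, with 0.36 ± 0.11 (SE, adjusted p = 0.026) in Cmpd 1 against Food matched and -0.47 ± 0.11 (SE, adjusted p = 0.0013) in Food matched against Lean, both under 1.5-fold. Without Lean 1 and 2 the latter passed that fold, at -0.64 (adjusted p = 2.4e-05).

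The FACIT chains, which sit on the surface of fibres, split. Col12a1 stood at 58.7 ± 15.5 CPM in Lean and rose to 124 ± 20.4 CPM in Obese, 1.07 ± 0.17 (SE, adjusted p = 1.9e-05), with no overlap. Col14a1 fell from 219 ± 52.8 to 113 ± 33.2 CPM, -0.95 ± 0.26 (SE, adjusted p = 0.0051), with Obese 3 inside the Lean range, and without Lean 1 and 2 it was -0.70 (adjusted p = 0.057). Col14a1 is expressed by fibroblasts, and 8 progenitor and fibroblast markers summed to 2988 to 4103 CPM in Lean, 2082 to 3086 in Obese, 1943 to 3168 in Food matched and 1785 to 3215 in Cmpd 1, none at 0; their part in the fall was not tested. Neither chain was called between Cmpd 1 and Food matched, at -0.30 ± 0.16 and 0.34 ± 0.26. Col16a1 was higher in Obese by 0.39 ± 0.12 (SE, adjusted p = 0.013), under 1.5-fold. Col20a1 was lower, at -0.69 ± 0.21 (SE, adjusted p = 0.011), falling under 1.5-fold without Lean 1 (-0.56). It lost its call without the 5 libraries named for muscle, epithelial or gland, or liver and intestine transcripts (-0.51, adjusted p = 0.20). That fit held only 2 Lean libraries.

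Col22a1, a FACIT of muscle and tendon junctions, was also called lower in Cmpd 1 than in Obese. It had 0.861, 0.862, 0.849, 0.923 and 0.917 CPM in Lean, 1.07, 0.992, 1.70, 0.957 and 0.455 in Obese, 0.865, 1.09, 0.864, 0.998 and 0.889 in Food matched and 0.545, 0.570, 0.521, 0.643 and 0.808 in Cmpd 1 (chromosome 7, 113015747 to 113228439, minus strand). The Obese values spread widest, from Obese 5 to Obese 3, and overlapped Cmpd 1 at Obese 5 alone, whereas every Cmpd 1 library lay below every Food matched library. The fitted log2 difference was -0.74 ± 0.24 (SE, adjusted p = 0.045) in Cmpd 1 against Obese and -0.61 ± 0.24 (SE, adjusted p = 0.074) in Cmpd 1 against Food matched. The former lost its call in 19 of 30 alternatives, among them 13 that left out 1 library, where the adjusted p ran from 0.050 to 0.15 and the log2 fold change was -0.49 without Obese 3.

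Col28a1, a chain with von Willebrand factor A domains, was high in Lean alone. It had 6.93, 9.12, 5.91, 6.61 and 6.51 CPM in Lean and 0.365, 0.906, 0.717, 0.758 and 0.705 CPM in Obese, then 0.350, 1.51, 0.407, 0.615 and 0.445 in Food matched and 0.424, 0.670, 1.17, 0.827 and 0.720 in Cmpd 1 (chromosome 4, 34048533 to 34194764, minus strand). The lowest Lean library, Lean 3, lay well above the highest of the others, Food matched 2. The chain's log2 fold change was -3.35 ± 0.35 (SE, adjusted p = 1.2e-07) in Obese against Lean and 0.15 ± 0.35 (SE, adjusted p = 0.81) in Cmpd 1 against Food matched.

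Col18a1, a multiplexin of vessel and epithelial basement membranes whose end fragment is endostatin, rose from 566 ± 109 to 748 ± 71.7 CPM in Obese, 0.40 ± 0.12 (SE, adjusted p = 0.0088), under 1.5-fold. Col7a1, which forms anchoring fibrils, was not called, at 0.27 ± 0.18 in Obese against Lean and -0.30 ± 0.18 in Cmpd 1 against Food matched. Among chains with a mean under 1 CPM, the transmembrane chains Col13a1 and Col23a1 were DEGs lower in Obese, at -2.005 ± 0.31 (SE, adjusted p = 1.8e-05) and -1.86 ± 0.60 (SE, adjusted p = 0.015). The cartilage FACIT chains Col9a2 and Col9a3 were too, at -3.84 ± 1.03 (SE, adjusted p = 0.0042) and -1.53 ± 0.46 (SE, adjusted p = 0.0087), and without Obese 4 the former was -4.72. Col9a1 was left out of the test with 52 reads; all 5 Lean libraries held some, and of the other 15 only Cmpd 1 2 did. Col13a1 was 1.12, 1.07, 0.942, 1.39 and 1.04 CPM in Lean and 0.234, 0.359, 0.245, 0.217 and 0.323 CPM in Obese, so the groups did not overlap. Col19a1, Col25a1 and Col1a2 were called in no comparison. Col26a1 with 25 reads, Col10a1 with 3, and the empty second Col23a1 row were not tested.

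Ratios of chains within a library do not depend on scaling between libraries, and are given per kilobase as descriptions with no test. Col6a1 to Col6a2 was 0.833, 0.843, 0.867, 0.854 and 0.859 in Lean and 0.972, 0.956, 0.996, 1.01 and 0.977 in Obese. It was 1.03, 0.981, 1.01, 1.01 and 0.971 in Food matched and 0.891, 0.805, 0.851, 0.843 and 0.869 in Cmpd 1. All Lean and Cmpd 1 libraries lay below all Obese and Food matched libraries. Col4a1 to Col4a2 was 1.03, 1.11, 1.05, 0.995 and 1.01 in Cmpd 1, below every other library, the ranges being 1.17 to 1.31 in Lean, 1.16 to 1.24 in Obese and 1.13 to 1.24 in Food matched. Col5a1 to Col5a2 was 0.419 to 0.494 in Lean, 0.511 to 0.593 in Obese, 0.483 to 0.583 in Food matched and 0.469 to 0.552 in Cmpd 1, with Lean below Obese. Col3a1 to Col1a1 was 3.25 to 3.97 in Lean and 3.21 to 3.52 in Obese, and 3.26 to 4.04 in Food matched and 3.09 to 3.66 in Cmpd 1, with overlap among all groups. Col1a1 to Col1a2 was not computed because of the Col1a2 row.

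**Figure D5:**
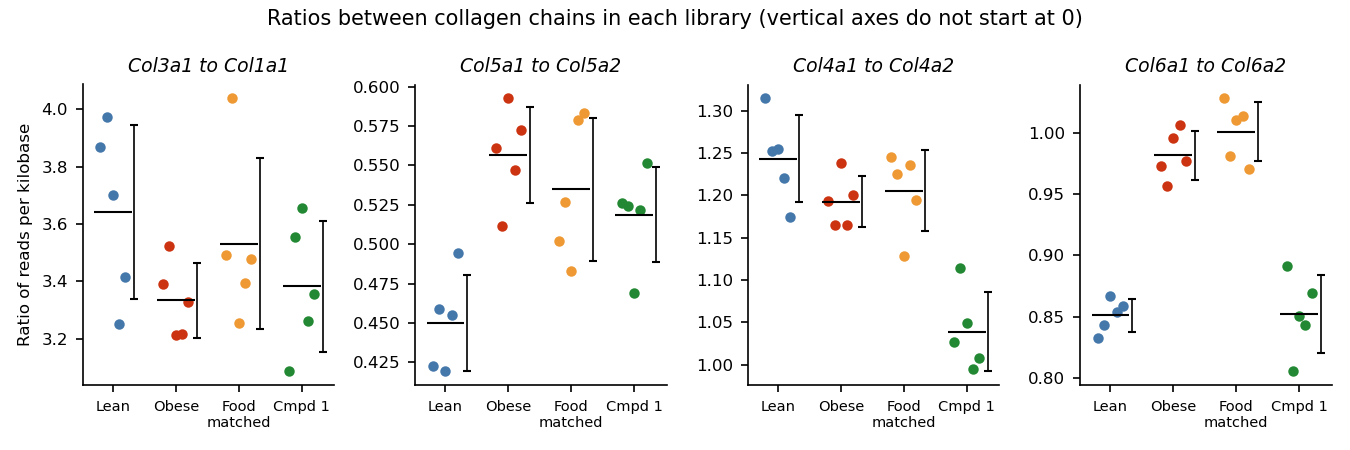
Ratio of reads per kilobase between 2 chains in each library (vertical axes do not start at 0), with the group mean as a line and the SD beside it (n = 5). Col6a1 to Col6a2 falls into a lower band of Lean and Cmpd 1 and an upper band of Obese and Food matched, and Col4a1 to Col4a2 is lowest in Cmpd 1, at 0.995 to 1.11.

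The enzymes and partners of collagen were read from lists, whose median log2 fold changes in Obese against Lean, beside -0.01 for all genes, were 0.13 for chain folding, 0.09 for cleavage and cross-linking, 0.30 for degradation, -0.27 for receptors and -0.23 for basement membrane partners. In Cmpd 1 against Food matched, beside 0.01 for all genes, they were -0.09, 0.02, -0.07, -0.09 and 0.19 in that order. Among all genes tested, 11.3% were DEGs higher and 11% were DEGs lower in Obese than in Lean. Between Cmpd 1 and Food matched the shares were 1.54% higher and 4.65% lower in Cmpd 1. Of 19 genes that fold or modify the chains, 1 was a DEG higher and 2 were DEGs lower in Obese than in Lean, and none was a DEG by edgeR between Cmpd 1 and Food matched, where an unadjusted p under 0.05 was reached by 1 upwards and 6 downwards, against 17.2% and 16.6% of all genes. Fkbp10, a collagen chaperone, rose by 0.66 ± 0.09 (SE, adjusted p = 3.4e-06), while P3h2, a prolyl 3-hydroxylase that favours type IV chains, and Colgalt2, a collagen galactosyltransferase, fell by 1.04 and 0.63 on the log2 scale. The collagen chaperone Serpinh1 and the prolyl 4-hydroxylase subunit P4hb were higher in Obese by 0.27 ± 0.08 (SE, adjusted p = 0.0079) and 0.57 ± 0.07 (SE, adjusted p = 4.3e-07), both under 1.5-fold, and lower in Cmpd 1 than in Food matched, at -0.28 ± 0.08 (SE, adjusted p = 0.014) and -0.26 ± 0.07 (SE, adjusted p = 0.0061). Of the 13 tested genes for procollagen cleavage and cross-linking, 1 was higher and 2 were lower in Obese (11.3% and 11% of all genes). Pcolce, an enhancer of procollagen cleavage, rose by 0.80 ± 0.11 (SE, adjusted p = 5.3e-06), and the proteinases Tll1 and Adamts14 were lower, at -1.07 ± 0.13 (SE, adjusted p = 8.4e-07) and -0.77 ± 0.15 (SE, adjusted p = 1.9e-04). Loxl4, a lysyl oxidase, was the DEG of this list in Cmpd 1 against Food matched, at 0.71 ± 0.12 (SE, adjusted p = 5.2e-04).

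Of 8 tested degrading enzymes and uptake receptors, 2 were DEGs higher in Obese and none was lower. The gelatinase Mmp9 was higher by 3.30 ± 0.29 (SE, adjusted p = 1.7e-08) and the collagen uptake receptor Mrc2 by 0.61 ± 0.11 (SE, adjusted p = 7.8e-05). Ctsk, a collagen cleaving cathepsin, was the DEG lower in Cmpd 1 than in Food matched, at -0.62 ± 0.11 (SE, adjusted p = 4.1e-04). Of 9 collagen receptors, Itga11, a fibrillar collagen integrin, was lower in Obese at -1.01 ± 0.19 (SE, adjusted p = 1.5e-04) and higher in Cmpd 1 than in Food matched at 0.75 ± 0.19 (SE, adjusted p = 0.0062), where the collagen receptor kinase Ddr1 was higher too, at 0.64 ± 0.13 (SE, adjusted p = 0.0013). Of 14 tested laminins and other basement membrane partners, Lamb3 and Nid2 were the 2 DEGs lower in Obese, at -1.89 ± 0.25 (SE, adjusted p = 2.4e-06) and -0.70 ± 0.15 (SE, adjusted p = 5.4e-04). Both were also the 2 DEGs higher in Cmpd 1 than in Food matched, at 1.12 ± 0.25 (SE, adjusted p = 0.0027) and 0.62 ± 0.15 (SE, adjusted p = 0.0051), the directions seen for Col4a4.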

How the data were processed

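The authors prepared stranded mRNA libraries, aligned reads to rn6 with STAR, used featureCounts to assign uniquely mapped reads to genes and deposited raw counts; the strand setting and Ensembl release were not given in the sources used here. The submitters' processing notes name STAR 2.5.2, Subread 1.5.1 and GRCh38, a human build, whereas the table's coordinates are rat. Collagen rows, classes, pathway and marker lists were chosen with earlier results of these data known, and the split at 1 CPM after values were seen. Genes without reads in 10 or more of 20 libraries were left out (14892 of 32545). Counts were tested with edgeR 4.0.16 (R 4.3.3; TMM scaling, quasi-likelihood, 1 fit of the 4 groups, 16 residual degrees of freedom), Benjamini-Hochberg adjusted over 17653 genes. CPM and RPKM use TMM-scaled totals. A DEG had a fold over 1.5 and adjusted p under 0.05. Values in every library were given for the 6 highest chains, the type IV chains and the DEGs of smallest adjusted p (at most 6 each) in Obese versus Lean, Cmpd 1 versus Food matched and Cmpd 1 versus Obese. Promoter sequences came from RefSeq (GRCr8). The fit was tested on simulated data. Marker and pathway lists are described by counts, sums or medians with no list test, and 1 marker list is not reported here. Alternatives used limma 3.58.1, DESeq2 1.42.0, other scaling, filters and samples. Each library came from 1 rat.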

Additional observations from a re-analysis of the deposited data

Results flagged for a closer look

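Among 76 groups of 5 libraries examined, 7 held 1 library far from the other 4 of its group. Chance alone sets apart about 1 in 20 groups if these are independent. The groups here share libraries and chains and are not, so the count was not compared with that rate. Food matched 2 accounted for 4 of the 7. Its Col4a1 was 2545 CPM against 3630.5 to 3813 in the other Food matched libraries, and its Col4a2 was 1559 CPM against 2259 to 2420.2. Col4a5 and Col28a1 stood high in the same library, at 8.32 CPM against 1.75 to 2.98 and at 1.51 CPM against 0.350 to 0.615. Food matched 2 also had the highest summed macrophage markers of all libraries (2285 CPM) and the lowest summed adipocyte markers (10624 CPM), and the part of these in the collagen values was not tested. Col4a5 was 10.6 CPM in Obese 2, against 1.93 to 4.02 in the other Obese libraries, the library whose mesothelial markers summed to 101 CPM. Col4a6 was 0.318 CPM in Cmpd 1 2, against 0.0208 to 0.0756 in the other Cmpd 1 libraries. Col6a4 was 3.79 CPM in Obese 3, against 1.73 to 2.13 in the other Obese libraries.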

How the results depend on the processing

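No fold change with an adjusted p under 0.05 reversed under the alternatives run for it, and fold changes above that p were not followed. With no fold threshold, 3 chains were higher in Cmpd 1 than in Food matched (1 in the fit reported), 7 were lower in Cmpd 1 than in Obese (3) and 10 were higher in Cmpd 1 than in Lean (5). These are counts out of 40 chains. Of all 17653 genes tested, 2015, 1224 and 3591 passed in the same comparisons and directions. A further fit left out the 5 libraries named for muscle, epithelial or gland, or liver and intestine transcripts. It kept Obese 2, named for mesothelial transcripts, and held only 2 Lean libraries, so its tests had less power. The kept Lean 3 and Lean 4 still summed to 99.5 and 95.9 CPM for liver and intestine genes. For lymph node genes they summed to 87.0 and 80.5 CPM. Every Lean library lay above every other library in both sums, so leaving libraries out cannot separate these transcripts from the Lean group. In that fit 8 chains were lower in Obese than in Lean (13) and 2 higher in Cmpd 1 than in Food matched. It also gave 1 lower in Food matched than in Obese (0), and 3 higher and 6 lower in Cmpd 1 than in Lean (5 and 11). The part of the lower power in the lost calls was not tested. DESeq2 gave 1 lower in Food matched than in Obese, scaling by library size alone 1 lower in Cmpd 1 than in Obese, and fits of only the 2 groups compared 2 higher in Cmpd 1 than in Food matched. DESeq2, the fit without Lean 1 and 2 and fits of only the 2 groups compared each gave 3 higher in Cmpd 1 than in Lean. The cause was not tested beyond the samples or threshold that each alternative changes.

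Leaving out 1 library at a time gave 9 to 10 higher and 11 to 14 lower in Obese than in Lean, 1 to 2 and 2 to 4 in Cmpd 1 against Food matched, 0 and 0 to 1 in Food matched against Obese, 0 to 1 and 1 to 4 in Cmpd 1 against Obese, 9 to 10 and 11 to 14 in Food matched against Lean, and 3 to 7 and 9 to 13 in Cmpd 1 against Lean. Chains higher in Cmpd 1 than in Food matched numbered 2 without Lean 3, Food matched 5 or Cmpd 1 2. Without Food matched 5, 1 chain was lower in Food matched than in Obese, and without Food matched 2, 1 was higher in Cmpd 1 than in Obese. Without Obese 3, Obese 4, Cmpd 1 2 or Cmpd 1 4, 1 chain was lower in Cmpd 1 than in Obese, and without Lean 2, 3 were higher in Cmpd 1 than in Lean.

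Replicate numbers did not pair the rats: of 30 same-numbered pairs of libraries, 1 had a correlation of deviations from the group means over 0.1 (range -0.102 to 0.145). With the replicate number as a block, chains higher and lower numbered 9 and 13 in Obese against Lean, 1 and 3 in Cmpd 1 against Food matched, 0 and 0 in Food matched against Obese, 0 and 2 in Cmpd 1 against Obese, 10 and 12 in Food matched against Lean, and 4 and 12 in Cmpd 1 against Lean. Scaling by another method moved the median log2 fold change of all genes by less than 0.06. Of the fold changes of single chains with 1 library left out, 1626 kept their side of the threshold, 65 lost it and 9 gained it, and under the other alternatives 781 kept, 57 lost and 4 gained it. Chains under 1 CPM rest on few reads, and counts here cannot separate isoforms or alleles.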
